A study of Mus musculus with 8 samples.

Results

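The constitutive proteasome genes were compared between the distal tracheas of old and young mice. They were taken as the genes whose platform symbol begins with Psm, a letter from a to g and a digit, leaving out the 3 inducible catalytic subunits Psmb8, Psmb9 and Psmb10. This gave 46 of 18193 genes, each measured by its brightest probe set, a group of short array probes for 1 transcript. Of the 46, 44 encode proteasome proteins: 16 subunits of the 20S core, 6 ATPases and 11 other subunits of the 19S regulator, 3 activators, 1 inhibitor and 7 assembly chaperones. The other 2 share only the letters. They are Psmc3ip, a factor of meiotic recombination, whose log2 fold change was 0.039 ± 0.20 (SE), and Psme3ip1, a binding partner of Psme3, with -0.072 ± 0.073 (SE). Psme2, the partner of Psme1, has no probe set that carries its symbol alone and was not analysed here.

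The proteasome is the particle that degrades most short-lived and damaged proteins of the cytosol and nucleus. Its barrel, the 20S core, stacks a pair of outer alpha rings, which gate the entry, around a pair of inner beta rings, which hold the proteolytic sites. The 19S regulator docks on the alpha ring, where its lid and base bind ubiquitin-tagged proteins and remove the tag, and its ATPase ring unfolds the chain and threads it inside. Activators of other families open the same gate without ubiquitin, and under interferon the catalytic subunits can be replaced by the inducible set. In mammalian cells the genes are transcribed together, and the transcription factor Nfe2l1 raises them when the proteasome is inhibited.

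Total RNA of the distal trachea and carina came from 4 old mice (14 months of age, numbered 1, 2, 5 and 6) and 4 young mice (2 months, numbered 3, 4, 7 and 8). All were female C57Bl/6 mice without any allele or treatment named in the labels, and each was run on 1 Affymetrix Mouse Genome 430 array. Signals are in arbitrary units on a linear scale, and changes are log2 fold changes of old minus young from limma with standard errors, p-values being adjusted over all 18193 genes. At an adjusted p under 0.05, 67 genes were higher and 33 lower in old mice. Log2 signals correlated at 0.951 to 0.958 within an age and at 0.947 to 0.952 across ages. No gene of the marker lists for basal, secretory and multiciliated cells, cartilage or smooth muscle had a mean signal under 150. Arrays had median signals of 150 to 161, so this cut does not by itself identify the tissue. The 5 secretory markers had summed signals of 96907 to 117818 in old and 105894 to 120731 in young mice. The tissue was whole, so fewer cells of a type and less RNA per cell cannot be told apart.

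By the size of their log2 fold changes, the proteasome genes differed little between ages. By limma, 0 of the 44 passed an adjusted p under 0.05, where 0.55% of all genes did (0.368% higher and 0.181% lower in old mice). Under 4 of 17 alternative settings 1 gene, Psme4, passed. At an unadjusted p under 0.05 there were 3 higher and 1 lower in old mice, together 9.09% of the 44, against 14.6% of all genes (7.31% higher and 7.28% lower). The ages did not overlap in 3 of the 44, or 6.82%, with 1 gene above and 2 below in old mice, against 10.1% of all genes (5.02% above and 5.11% below). These counts of genes that passed or did not overlap are small and do not set the 44 apart from all genes. A log2 fold change past 0.25 in size was seen in 3 of the 44, or 6.82%, against 32.1% of all genes and 15.5% of the 9097 genes with the brighter signals. The median over the 44 was 0.022, with a range of -0.24 to 0.41, and 30 of them (68.2%) had a positive value. Over all genes the median was -0.0047 and 49.0% were positive.

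The proteasome genes were bright and varied little among mice. All but Psma8 and Psmb11 lay among the 9097 brighter genes, and 25 of the 44 were in the top 10% by signal. The median SD of log2 signal among mice of 1 age was 0.107 for the 44, against 0.197 for all genes and 0.128 for the brighter genes. The 95% interval of the log2 fold change, taken gene by gene, lay within 0.5 of 0 on both sides for 41 of the 44, against 51.0% of all genes and 80.4% of the brighter genes. The exceptions were Psma8, Psmb11 and Psmg4. For the others a change beyond about that size is not contained in the interval, although smaller changes are not shown to be absent. The plot of fold changes by gene shows how closely the classes lie around 0.

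**Figure D1:**
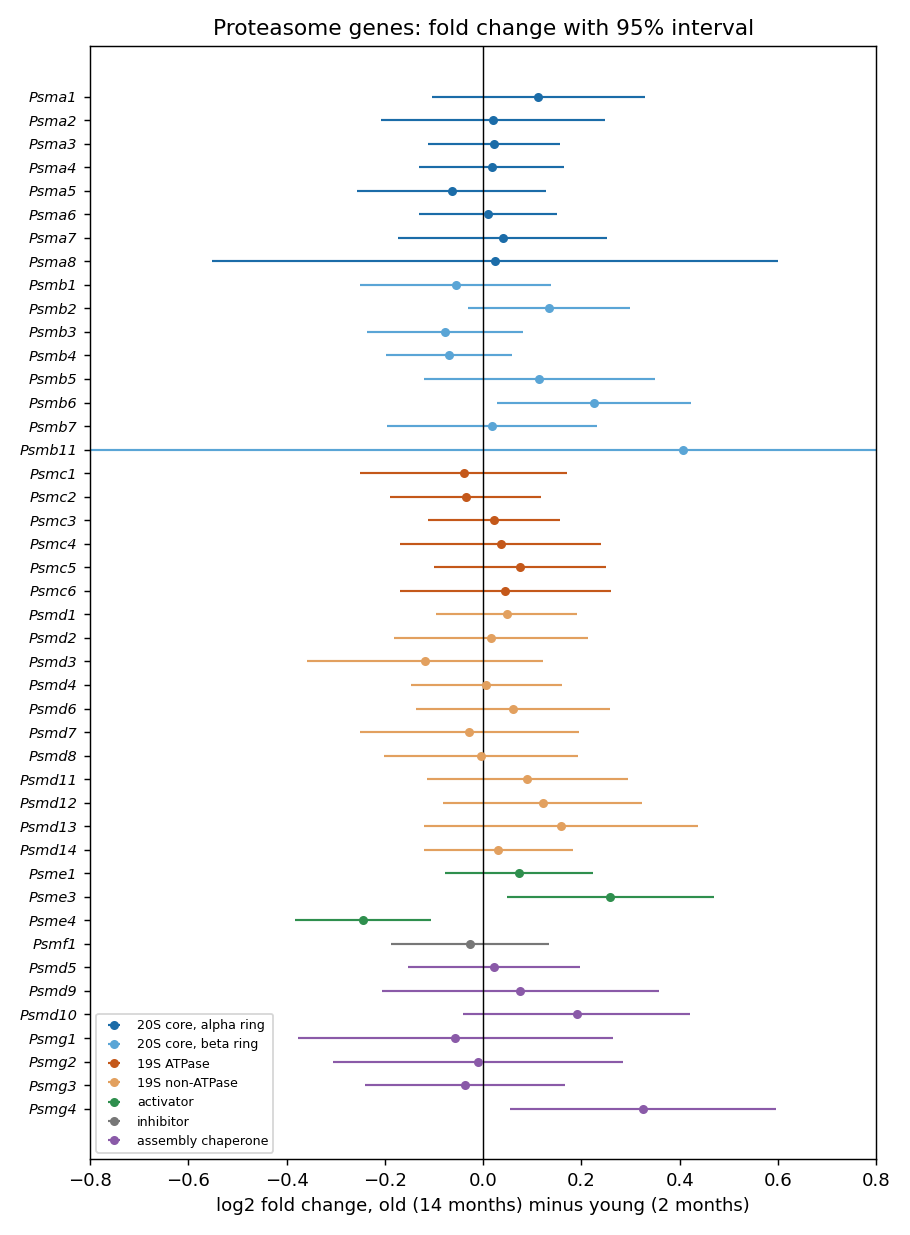
Log2 fold change of old minus young mice (horizontal axis) for the 44 proteasome genes (vertical axis, by class), with points at the estimate and lines for the 95% interval (n = 4 mice per age). All estimates but those of Psmb11, Psmg4 and Psme3 lie between -0.25 and 0.25, and the interval of Psmb11, from -1.72 to 2.53, runs past the axis.

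The 16 core genes had a median of 0.021, which was 0.079 without young mouse 7 and -0.0018 without young mouse 3. Values in the alpha ring were small. Psma1 had the smallest p of the 8 genes, with signals of 4585, 4652, 3968 and 4420.2 in old mice 1, 2, 5 and 6, against 3671, 3924, 4585 and 4144 in young mice 3, 4, 7 and 8. The ages overlapped, and the log2 fold change was 0.11 (standard error 0.093, limma adjusted p = 0.636). The other ubiquitously expressed alpha subunits had values of 0.021 for Psma2, 0.022 for Psma3, 0.017 for Psma4, -0.064 for Psma5, 0.010 for Psma6 and 0.040 for Psma7, with standard errors between those of Psma3 (0.058) and Psma2 (0.098). Old mice were even for Psma4, a subunit of the gate, at 3965 to 4038, against 3835 to 4271 in young mice. Psma8, which replaces Psma7 in testis, was dim in both ages at 62.7 ± 22.1 in old and 59.5 ± 9.49 in young mice (SD, n = 4 each).

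On their brightest probe sets, the 3 catalytic subunits of the beta ring had positive values and 3 of the 4 ubiquitous noncatalytic subunits negative ones. Psmb6, the caspase-like subunit, had signals of 2875, 2571, 2732 and 2781 in old mice 1, 2, 5 and 6, against 2410.3, 2339, 2575 and 2075 in young mice 3, 4, 7 and 8. Only young mouse 7 and old mouse 2 overlapped, by less than their spread, and the log2 fold change was 0.22 (standard error 0.085, unadjusted p = 0.0307, adjusted p = 0.284 by limma). Psmb5, the chymotrypsin-like subunit that is the main target of bortezomib, had signals of 2803, 3029, 2779 and 2923 in old mice, against 2649, 2235, 2993 and 2834 in young mice. Its log2 fold change was 0.11 (standard error 0.10). Psmb7, the trypsin-like subunit, had signals of 2494, 2677, 2169 and 2535 in old mice, against 2297, 2303, 2678 and 2463 in young mice. Its value was 0.018 (standard error 0.092). In both genes the ages overlapped, young mouse 7 being the highest or next to the highest of the 8 mice. Among the subunits without a proteolytic site, Psmb1 was at -0.056 (standard error 0.083), Psmb2 at 0.13 (0.071), Psmb3 at -0.078 (0.068) and Psmb4 at -0.069 (0.055). None of the 7 passed the adjusted threshold, and the difference between catalytic and noncatalytic subunits was not tested. The signs of Psmb1, Psmb3 and Psmb4 depended on the probe set. In a fit over all probe sets, the 2 dimmer probe sets of Psmb1 were at 0.12 (standard error 0.12) and -0.11 (0.19). The first of these averaged 315 in old and 291 in young mice. A second probe set of Psmb3, averaging 2229.5 in old and 2108.4 in young mice, was at 0.082 (standard error 0.12, in a fit over all probe sets). With the mean of all probe sets Psmb1 stood at -0.014, Psmb3 at 0.0022 and Psmb4 at 0.024.

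Psmb4 gave opposite answers from its 2 probe sets, both bright. On the brightest, signals were 6088, 6109.6, 6065 and 6135 in old mice, against 6328, 6309, 6466 and 6499 in young mice, so that every old mouse lay below every young mouse. On the other, signals were 6283, 6782, 6257 and 6263 in old mice, against 5562, 5760.2, 6207 and 6054 in young mice, and the order was turned round, with all 4 old mice above all 4 young mice. The log2 fold changes were -0.069 (standard error 0.055) and 0.12 (standard error 0.074, in a fit over all probe sets, as for every further probe set below), and a direction for Psmb4 cannot be given. Psmb11, the form of Psmb5 found in cortical epithelium of the thymus, had a dim signal of 38.2 ± 24.4 in old and 28.7 ± 16.1 in young mice (SD, n = 4 each).

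On the brightest probe sets the ATPase ring showed the narrowest range of any class with more than 3 genes, from -0.040 for Psmc1 to 0.076 for Psmc5. Psmc5 had signals of 2169.7, 2002, 2039.8 and 1896 in old mice, against 1822, 1851, 1942 and 2079 in young mice. The ages overlapped (standard error 0.075, limma adjusted p = 0.703). Between these lay Psmc2 at -0.036, Psmc3 at 0.022, Psmc4 at 0.036 and Psmc6 at 0.045, with standard errors of 0.066, 0.058, 0.088 and 0.093. All 6 intervals stayed between -0.25 and 0.26. The second probe set of Psmc1 gave 2.13 (standard error 0.63), on dim signals that averaged 19.7 in old and 3.82 in young mice. The brightest, with signals of 1694 ± 165 in old and 1737 ± 94.6 in young mice (SD, n = 4 each), is the one used. A second probe set of Psmc4, averaging 1835 in old and 1590 in young mice, was at 0.20 (standard error 0.095). The dimmest of Psmc6, averaging 301 in old and 233 in young mice, was at 0.38 (standard error 0.13, unadjusted p = 0.0204 by limma). The remaining probe set of Psmc6 was at 0.11 (0.088).

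The 11 other subunits of the 19S regulator had a median of 0.031, and the ages overlapped in all of them. Psmd12, a lid subunit, had the smallest p, with signals of 2097, 2061, 1885 and 2025 in old mice, against 1649.7, 1779.9, 2028 and 1979 in young mice. Its log2 fold change was 0.12 (standard error 0.087, limma adjusted p = 0.580). The deubiquitinase Psmd14, which cuts the ubiquitin chain from the substrate, was at 0.031 (standard error 0.065), and its inactive partner Psmd7 at -0.028 (0.096). The ubiquitin receptor Psmd4 was at 0.0068 (0.066) and the scaffold subunits of the base, Psmd1 and Psmd2, at 0.048 (0.061) and 0.016 (0.085). A second probe set of Psmd4, averaging 1488 in old and 1645 in young mice, was at -0.15 (0.12). With the mean of all probe sets Psmd4 stood at -0.098. Psmd11, the lid subunit that touches the core, was at 0.090 (0.088). The remaining lid subunits were Psmd3 at -0.12 (0.10), Psmd6 at 0.061 (0.085), Psmd8 at -0.0047 (0.085) and Psmd13 at 0.16 (0.12). In Psmd13 old mouse 1, at 661, was above the other 3 old mice, at 457 to 507, and young mice were at 448 to 503.

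The 3 activators had log2 fold changes on both sides of 0, from -0.24 for Psme4 to 0.26 for Psme3. Psme4 (PA200), a large nuclear activator linked to the degradation of acetylated histones, had signals of 3221, 3134, 3095 and 3062 in old mice 1, 2, 5 and 6, against 3733, 3639.8, 3855 and 3599 in young mice 3, 4, 7 and 8. Every old mouse lay below every young mouse. An exact two-sided permutation test gave p = 0.0286, the smallest that 4 mice against 4 allow. Every gene whose ages do not overlap gets this value, Psme3 and Psmb4 included, so it adds nothing to the order of the mice. The log2 fold change was -0.24 (standard error 0.059, 95% interval -0.38 to -0.11), a level in old mice 0.844 times that in young mice. It had the smallest p of the 44 genes but did not pass over all genes (unadjusted p = 0.00370, adjusted p = 0.128 by limma). It passed in 4 of 17 alternatives, at adjusted p of 0.0394 with a robust prior variance that follows the signal, 0.0457 in a linear model without moderation, 0.0485 among the brighter genes alone and 0.0282 with all signals under 32 set to 32. Over the 17 alternatives the adjusted p ran from 0.0282 to 0.303, with a negative value in each.

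Of the 6 probe sets of Psme4, 5 had negative values. The second brightest gave 2128, 2177, 1938 and 2003 in old mice, against 2313, 2322, 2418 and 2511 in young mice, again without overlap, and a log2 fold change of -0.21 (standard error 0.075). The next were at -0.14 (0.098) and -0.078 (0.11), and the dimmest, with signals averaging 52.6 in old and 75.6 in young mice, at -0.53 (0.27). The exception, at 0.075 (0.17), had signals averaging 134 in old and 126 in young mice. The plot of the probe sets shows the sizes beside the signals.

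Psme3 (PA28 gamma), a nuclear activator that degrades unstructured proteins without ubiquitin, had the opposite order. Its signals were 482, 419, 412 and 420.0 in old mice 1, 2, 5 and 6, against 402, 336, 372 and 339 in young mice 3, 4, 7 and 8. All 4 old mice lay above the young mice, with old mouse 5 and young mouse 3 nearest to each other, and the log2 fold change was 0.26 (standard error 0.090, unadjusted p = 0.0222, adjusted p = 0.252 by limma). A second probe set gave 363, 309, 340.2 and 310.2 in old mice, against 223, 238, 250.5 and 289.8 in young mice, also without overlap, at 0.41 (standard error 0.11). The third, with signals averaging 29.5 in old and 48.2 in young mice, was at -1.59 (standard error 0.91), and with the mean of all probe sets the gene stood at -0.31 (adjusted p = 0.717). Psme1 (PA28 alpha), the interferon-inducible activator of the cytosol, was at 3831 ± 184 in old and 3641 ± 96.5 in young mice (SD, n = 4 each), and the log2 fold change was 0.072 (standard error 0.065, limma adjusted p = 0.667). Psmf1 (PI31), which inhibits the isolated core and binds it in cells, was at -0.027 (standard error 0.069), with its 4 probe sets between -0.072 and 0.12.

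**Figure D2:**
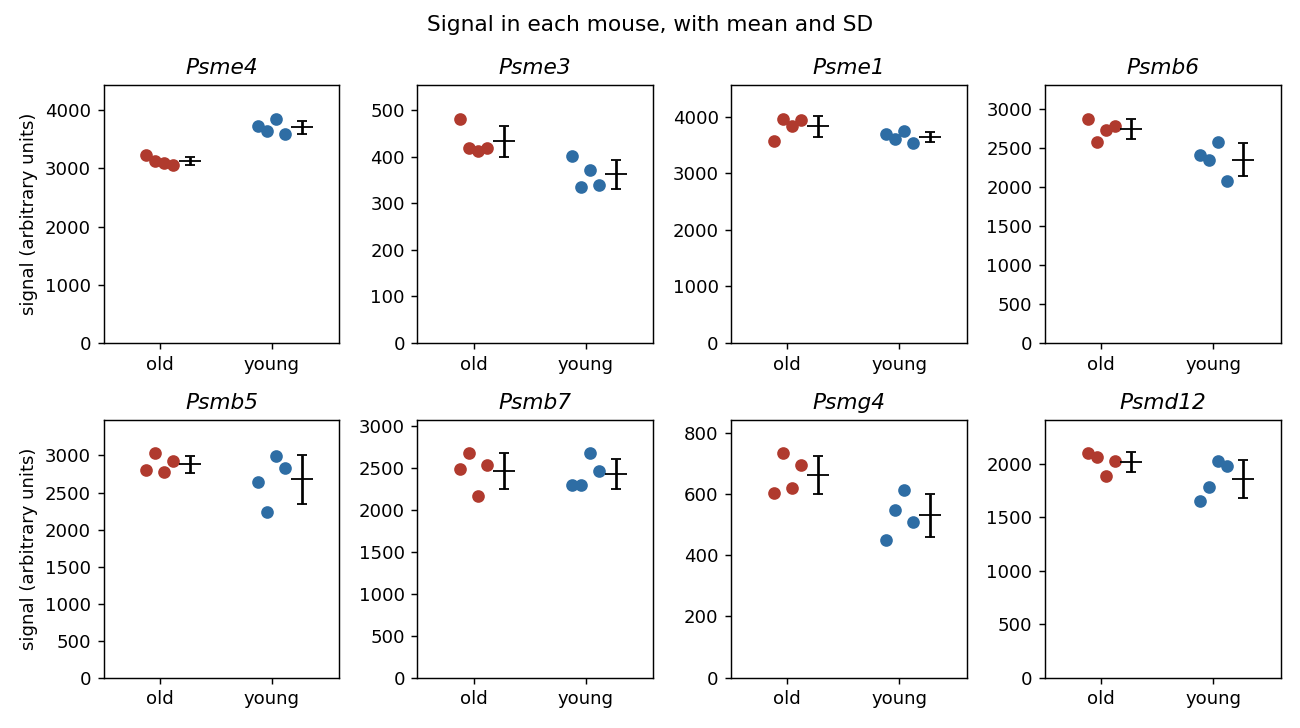
Signal of 8 proteasome genes in each mouse (vertical axis, arbitrary units, from 0), with old mice left of young mice, points for single mice and bars for the mean and SD of 4 mice. Old mice lie below young mice in Psme4, at 3062 to 3221 against 3599 to 3855, and above them in Psme3, and the ages overlap in the other 6 genes.

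**Figure D3:**
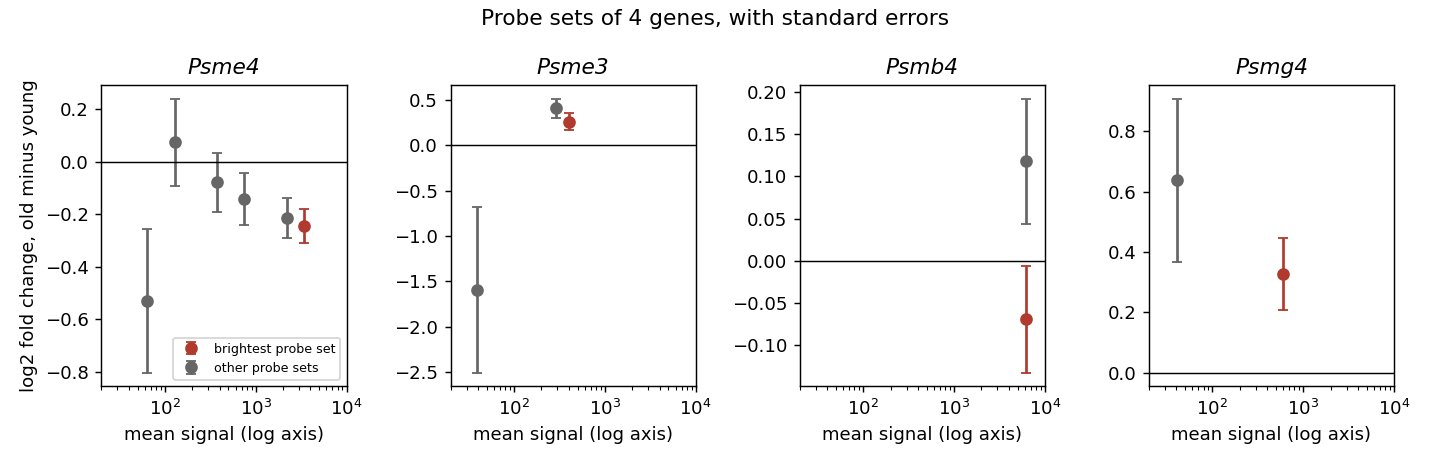
Log2 fold change of old minus young with its standard error (vertical axis, scaled separately in each panel) against the mean signal (horizontal log axis, arbitrary units) for every probe set of Psme4, Psme3, Psmb4 and Psmg4. The brighter probe sets of Psme4 are below 0, and those of Psme3, at middling signals, are above 0. The dimmest of Psme3 is at -1.59, and the 2 of Psmb4 lie on both sides.

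Among the 7 assembly chaperones, Psmg4 had the largest value. Psmg4 pairs with Psmg3 to guide the first steps of the alpha ring. Its signals were 602, 733, 621 and 694 in old mice, against 449.9, 547, 614 and 508 in young mice. Young mouse 7 lay above old mouse 1, and the other 3 young mice lay below every old mouse. The log2 fold change was 0.33 (standard error 0.12, unadjusted p = 0.0242, adjusted p = 0.260 by limma), and a dim second probe set was at 0.64 (standard error 0.27). Its partner Psmg3 was at -0.037 (0.087). The other core chaperones, Psmg1 and Psmg2, which form a pair of their own, were at -0.056 (0.14) and -0.0100 (0.13). The chaperones of the 19S base were at 0.022 (0.075) for Psmd5, 0.076 (0.12) for Psmd9 and 0.19 (0.099) for Psmd10 (gankyrin).

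The promoters of the activators with opposite order and of a pair of catalytic subunits are given to show which control elements these genes do and do not share. RefSeq windows (GRCm38.p6) of 250 bases upstream of a transcription start were found for 36 of the 44 genes. They were searched on both strands for the antioxidant response element bound by Nfe2l1 and Nfe2l2 (TGACNNNGC), the core of ETS sites (CCGGAAG) and the CCAAT box (CCAAT), which did not overlap one another in these windows. Matches are in capitals, 5′ to 3′ on the strand of the gene.
Psme4, chr11:30771525-30771774, plus strand: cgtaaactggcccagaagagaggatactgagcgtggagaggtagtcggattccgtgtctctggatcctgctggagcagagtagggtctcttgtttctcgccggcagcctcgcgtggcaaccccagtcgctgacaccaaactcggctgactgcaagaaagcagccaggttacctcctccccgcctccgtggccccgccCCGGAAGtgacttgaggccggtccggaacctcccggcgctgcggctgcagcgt
Psme3, chr11:101315963-101316212, plus strand: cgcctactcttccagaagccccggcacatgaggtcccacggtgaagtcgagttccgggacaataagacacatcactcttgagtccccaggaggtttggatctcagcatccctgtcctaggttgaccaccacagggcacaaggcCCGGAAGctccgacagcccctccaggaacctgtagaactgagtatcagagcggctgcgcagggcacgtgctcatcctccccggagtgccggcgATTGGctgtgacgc
Psmb6, chr11:70525107-70525356, plus strand: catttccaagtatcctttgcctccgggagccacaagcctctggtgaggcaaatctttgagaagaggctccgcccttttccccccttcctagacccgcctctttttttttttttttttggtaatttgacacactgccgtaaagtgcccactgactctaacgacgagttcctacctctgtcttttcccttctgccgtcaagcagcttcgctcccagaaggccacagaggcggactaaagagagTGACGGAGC
Psmb5, chr14:54617996-54618245, minus strand: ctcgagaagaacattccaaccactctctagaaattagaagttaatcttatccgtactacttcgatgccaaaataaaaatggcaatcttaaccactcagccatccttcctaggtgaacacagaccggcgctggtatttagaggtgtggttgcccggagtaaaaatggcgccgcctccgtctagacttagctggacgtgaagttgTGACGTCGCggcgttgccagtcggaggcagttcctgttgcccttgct
Psme4 holds 1 ETS core that begins 53 bases before the start. Psme3 holds 1 at 107 bases and, on the other strand, a CCAAT box at 14 bases. Psmb6 and Psmb5 each hold 1 antioxidant response element, which begins 9 and 47 bases before the start, and no ETS core. Over the 36 genes the ETS core was found in 12 (33.3%), against 7.83% of all 27025 genes with a window and 15.8% of the 7388 among the brighter genes. The antioxidant response element was found in 5 (13.9%), namely Psmb5, Psmb6, Psmc6, Psmd9 and Psmd12, against 11.5% and 13.8%. The CCAAT box was found in 13 (36.1%), against 37.5% and 40.2%. A match is a description of the letters and not a bound site.

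Mice of the same age differed from one another across many of these genes at once. Without the dim Psma8 and Psmb11, 14 core genes remained, and young mouse 7 was the highest of the 4 young mice in 12 of them (85.7%), whereas it was the highest in 25.5% of the brighter genes. The mean deviation of the 14 genes from their 8-mouse mean was 0.020, 0.056, -0.020 and 0.0077 in old mice 1, 2, 5 and 6, and -0.076, -0.080, 0.10 and -0.011 in young mice 3, 4, 7 and 8. The 4 young mice therefore spanned a wider range than the old mice, which lay within it. Over 42 genes young mouse 7 was the highest young mouse in 28 (66.7%) and young mouse 3 the lowest in 21. Among old mice, mice 1 and 2 were each the highest in 16 and mouse 5 the lowest in 18. The classes were not alike in this: in the 11 non-ATPase subunits of the 19S regulator, young mouse 7 was the highest young mouse in 4, and old mouse 1 the highest old mouse in 7. Without young mouse 7 the median of the 44 genes was 0.060, and without young mouse 3 it was 0.0072. The count of genes at an unadjusted p under 0.05, 4 with all mice, was 2 without old mouse 1, old mouse 6 or young mouse 4, and 1 without young mouse 8. It was 5 without young mouse 7. The genes share arrays, so these counts are not independent.

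**Figure D4:**
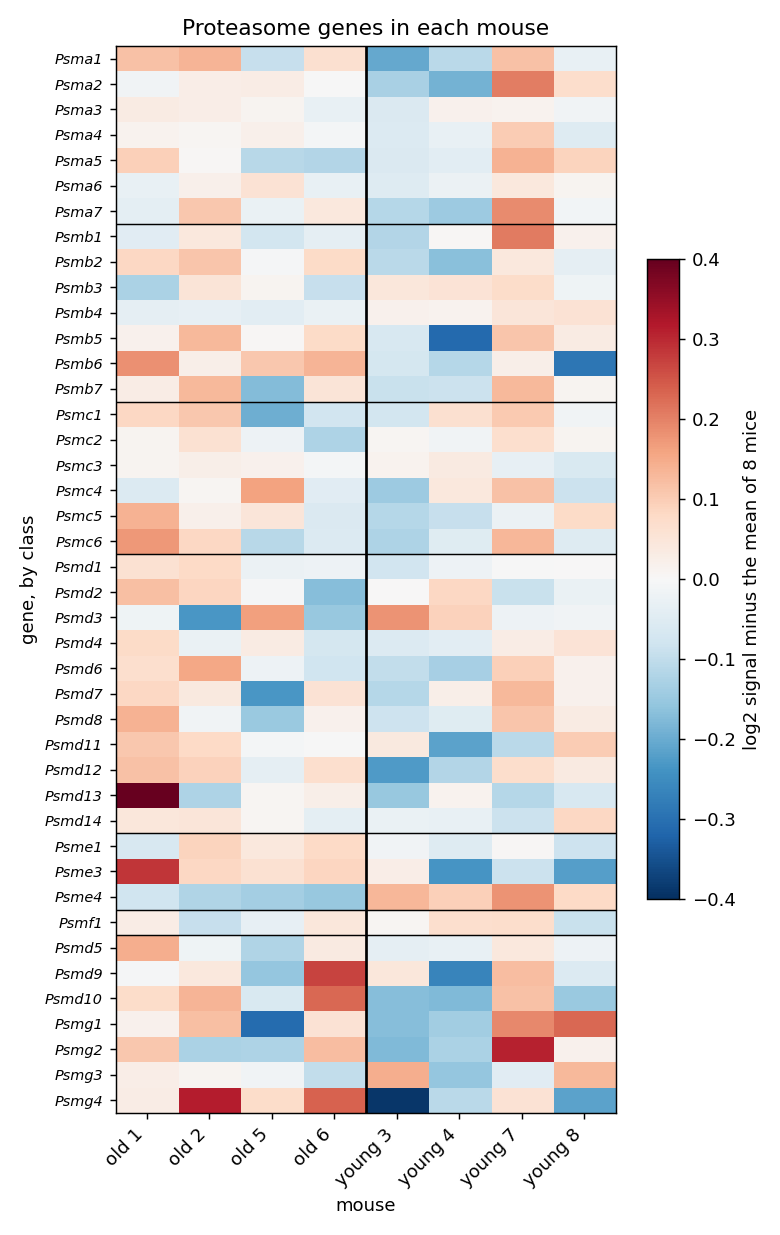
Log2 signal of 42 proteasome genes (rows, by class) in each mouse (columns, old mice left of young mice) relative to the gene's mean over the 8 mice, on a scale from -0.4 (blue) to 0.4 (red). The column of young mouse 7 is mostly red in the core, where it is the highest young mouse in 12 of 14 genes, and the row of Psme4 is blue in all old and red in all young mice, at a log2 fold change of -0.24.

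Genes that serve the proteasome under other names had small values as well. Of 20 measured genes of ubiquitin supply, shuttling, docking and transcription, 11 had positive and 9 negative values, with a median of 0.013 and a range of -0.073 to 0.16. By limma 0 passed an adjusted p under 0.05, against 0.55% of all genes, and 0 an unadjusted p under 0.05, against 14.6%. With 20 genes, the count at the adjusted threshold does not set them apart from all genes. Nfe2l1 was at 0.041 (standard error 0.13). Those with the smallest p are the following 6. The shuttle factors Ubqln1 and Ubqln4 were at 0.16 (standard error 0.076) and 0.15 (0.097). The redox protein Txnl1, which binds the regulator, was at 0.12 (0.077), and the proteasome-bound deubiquitinase Usp14 at 0.15 (0.12). Nfe2l2, a transcription factor of the antioxidant response, had signals of 5376, 5743, 5812 and 5608 in old mice, against 4733, 4952, 5734 and 5439 in young mice, and stood at 0.12 (0.081). Pomp, the maturation factor of the core, had the lowest value, -0.073 (0.069).

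Psmb9 had signals of 373, 444, 605 and 587 in old mice, against 413, 411, 352 and 299 in young mice. The 3 inducible catalytic subunits had values of 0.43 for Psmb9 (standard error 0.19), 0.23 for Psmb8 (0.16) and 0.094 for Psmb10 (0.069), beside 0.22, 0.11 and 0.018 for Psmb6, Psmb5 and Psmb7, the subunits that each of them replaces. None of the 3 passed the adjusted threshold, and the differences within pairs were not tested.

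Summed signals of markers of several other cell types did not overlap between ages, although few of the single genes passed the test. All 6 plasma cell markers had positive values, with summed signals of 8339.8 to 18979.9 in old mice and 4164 to 4709.5 in young mice, and 1 of them, Jchain, was called higher (limma adjusted p = 0.0343). Jchain alone was at 3735 to 14016 in old and 127 to 730 in young mice. Mzb1, Pou2af1 and Tnfrsf17 did not overlap between ages either. Sdc1 and Derl3 did overlap, at 0.10 (standard error 0.12) and 0.17 (0.15). In the T cell, basal cell, fibroblast, skeletal muscle and interferon lists 0 genes were called by limma, and at an unadjusted p under 0.05 there were 4, 3, 2, 2 and 1. Over all genes the shares were 0.55% and 14.6%. The sums of the cartilage and smooth muscle lists overlapped between ages, and 0 of their genes were called. At an unadjusted p under 0.05 by limma, 1 cartilage gene was higher and 2 lower in old mice. Of the 5 smooth muscle markers 0 had positive values, and 1, Myh11, was lower at that threshold, at -0.41 (standard error 0.098). The 4 measured T cell markers summed to 574 to 954 in old and 344 to 444 in young mice. The 4 measured B cell markers, all positive and all under a mean signal of 150, summed to 289 to 726 in old and 180 to 243 in young mice. Of these B cell markers, 0 were called and 2 had an unadjusted p under 0.05 by limma. The 5 basal cell markers summed to 13285 to 16989.9 in old and 11047 to 12901 in young mice. Krt15 made up most of this sum, and Trp63 had a negative value of -0.048 (standard error 0.090). Lower sums without overlap were seen for the 5 fibroblast markers, 1 of which had a positive value, at 48853 to 53199 in old and 59100.0 to 65562 in young mice. Among these, Col1a1 and Col3a1 were at -1.58 (standard error 0.32) and -0.76 (0.13). Dcn, Pdgfra and Lum were at -0.067 (0.083), -0.061 (0.097) and 0.0067 (0.13). The 8 skeletal muscle markers also had lower sums without overlap, at 1755 to 2367 in old and 2559.9 to 3294 in young mice. Of these 8, 4 had positive values and 5 were under a mean signal of 150. Tnnt3 and Ckm made up most of the sum, at -1.09 (standard error 0.24) and -0.46 (0.19). Of the 6 measured interferon response genes, 5 had positive values, and their sums overlapped, at 6016 to 7517 in old and 5141 to 6744 in young mice. No marker had a signal of 0. The part of these cell types in the values of Psme4, Psme3, Psmb6 and Psmg4 was not tested.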

How the data were processed

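Tracheal RNA of 4 old and 4 young female mice was hybridised to 1 array per mouse. The deposited values are intensity signals per probe set on a linear scale. According to the methods the authors used Partek software and robust multichip analysis. Yet every array has a mean signal of 500.002 with the top and bottom 2% left out, a form usual for single-array scaling. The median signal differed between arrays, from 150 to 161, so the deposited values are not quantile normalized across arrays. How they were made could not be settled. No detection call was given, and the number of arrays limits the precision. After 64 control probe sets were left out of 45101, signals were taken to log2 without floor or filter. The platform annotation gives 1 symbol to 34945 probe sets, and a lookup of gene identifiers in RefSeq (GRCm38.p6) changed none. Each of 18193 genes, immunoglobulin genes included, was measured by the probe set with the highest mean log2 signal.

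The test was limma's moderated linear model (version 3.58.1, R 4.3.3), two-sided with age as the one term, and adjusted p-values are by the Benjamini-Hochberg method over all genes. The second factor of the analysis of variance in the methods is not named and was left out. The steps were tested on simulated data. Every member is named; signals per mouse are given for members whose ages do not overlap or that pass an adjusted p under 0.05, and for the member of each class with the smallest p, activators and inhibitor forming 1 class. Signals per mouse of other genes were added after seeing the values. The members and lists were chosen with earlier results of these data known. Alternatives covered the scaling, the probe set of a gene, dim signals, the variance model, mouse numbers and the omission of each mouse.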

Additional observations from a re-analysis of the deposited data

Results flagged for a closer look

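In 6 of 92 sets of 4 mice of 1 age and 1 gene, a single mouse stood apart from the other 3 by Dixon's criterion, where chance sets apart about 1 in 20. Young mouse 7 was high in 3 of them, at 906 for Psmd10 (others 739 to 753), 805 for Psmd5 (others 762 to 769) and 4271 for Psma4 (others 3835 to 3903). Old mouse 1 was high for Psme3, at 482 (others 412 to 420.0). Old mouse 5 was low for Psmd7, at 900.6 (others 1088 to 1121). Young mouse 8 was low for the dim Psmb11, at 4.78 (others 33.4 to 38.5).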

How the results depend on the processing

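Of the 44 proteasome genes, 18 kept the sign of their log2 fold change in all 17 alternatives, and Psme4 was the only one that passed an adjusted p under 0.05 in any. The count of proteasome genes called, 0 by limma, was 1 with the brighter genes alone, a floor of 32, a trended and robust prior and a linear model without moderation. By the fold (over 2) and unadjusted p (under 0.05) that the methods name, it was 0. The count over all genes, 100, was 57 with the mean of all probe sets, 441 with the brighter genes alone, 252 with the floor, 487 with the trended and robust prior, 66 with a term for the lower against the higher mouse numbers and 238 at the methods' thresholds. It was 12 to 48 without single mice. With the mean of all probe sets the median of the ATPases was 0.11 and that of the activators -0.19. Psmc1, Psmc2, Psmc4 and Psmc6 then stood at 1.04, 0.10, 0.12 and 0.18. Quantile normalization and median centring moved the median of all genes to -0.0093 and -0.017. The other medians moved by less than the spread between mice, although that of the core was 0.079 without young mouse 7, that of the non-ATPase subunits was -0.0047 with the mean of all probe sets and that of the core -0.0018 without young mouse 3. The proteasome genes at an unadjusted p under 0.05, 4 by limma, were 6 with the floor and in the linear model without moderation, and 1 to 5 without single mice. Values that changed sign were not called in either setting, among them Psme3 at -0.31 and Psmb4 at 0.024 with the mean of all probe sets. No paired analysis was possible because old and young mice share no mouse number. Dim signals limit what Psma8 and Psmb11 can show.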
